A study of Homo sapiens with 18 samples.

Results

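The genes described here are 53 genes of DNA replication licensing and of the replication fork, chosen by name from a list and not by any measured value. Earlier results of these data were known when they were chosen. All 53 were found among the 20329 genes in the files, and all 53 had enough counts to be tested in each of 9 comparisons. Their RNA was measured in HAP1 cells, a near-haploid human line derived from a chronic myeloid leukaemia, with 3 libraries in each of 6 groups. Set A held unmodified control cells, *ΔWAPL* clone 3.3, *ΔSCC4* cells and *ΔWAPL*/*ΔSCC4* cells, and set B held its own control cells and *ΔWAPL* clone 1.14. The sample titles give A or B for the control cells only, so the placing of each knockout in a set is an assumption. What a set stands for is not stated. *WAPL* had been disrupted by CRISPR with a blasticidin cassette and *SCC4* with a puromycin cassette, and the double knockout was made by disrupting *SCC4* in *ΔWAPL* cells. Each knockout is a clone, *ΔSCC4* cells are described by the study as impaired in growth, and all groups share the impaired p53 function of HAP1.

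WAPL releases cohesin from DNA, and SCC4 (gene symbol *MAU2*) is a subunit of the loader that puts cohesin on DNA. DNA replication starts at origins that are licensed in G1, when ORC, CDC6 and CDT1 load the MCM2 to MCM7 helicase onto DNA. In S phase, CDC45 and the GINS complex join the helicase and convert it to the active CMG helicase, and polymerase alpha with primase, polymerase delta, polymerase epsilon, the PCNA clamp and the RPA single-strand binding complex copy the unwound strands. Many of these genes are transcribed under E2F control around the start of S phase. Cohesion between sister chromatids is established at the passing fork, with the help of factors such as the CHTF18 clamp loader. The comparisons below ask how the RNA of this machinery responded to loss of the release factor, of the loader, and of both.

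Each library held between 10007646 and 20711127 counts on genes (median 16177867). The targeted genes were examined first. *WAPL* lay between 78.09 and 121.2 CPM in the 3 controls of set A and between 40.34 and 50.18 CPM in clone 3.3, where CPM is a count scaled to a common library size after TMM normalization over the 18 libraries. It lay between 103.9 and 131.1 CPM in the controls of set B and between 37.99 and 43.45 CPM in clone 1.14, and between 41.03 and 48.47 CPM in the double knockout. *MAU2* lay between 61.32 and 72.74 CPM in the controls of set A, between 0.509 and 0.975 CPM in *ΔSCC4* cells and between 0.848 and 1.045 CPM in *ΔWAPL*/*ΔSCC4* cells. Each targeted gene was therefore lower in every library labelled as its knockout than in every control of the same set. Of 8 myeloid marker genes, 3 were at 0 in all 18 libraries and their summed level was at most 0.76 CPM, although the line comes from a myeloid leukaemia. The summed level of 6 fibroblast markers was between 11.3 and 32.21 CPM, nearly all of it from *COL1A1*.

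The promoters of 44 of the 53 genes could be matched by symbol to RefSeq windows of GRCh38.p14 that run from 250 bases before to 50 bases after the annotated start, and the other 9 genes had no entry. Letter strings of the E2F type, TTTCCCGC and TTTGGCGC, and the string CCAAT of the NF-Y type were searched on both strands. An E2F-type string was found in 19 of the 44 genes, or 43.2%, while 2.27% of the 35116 windows of the whole table and 4.69% of the 10065 tested genes held one. CCAAT was found in 26 genes, or 59.1%, against 34.6% of all windows and 43.5% of tested genes. Within *TIPIN* the TTTGGCGC matches on the 2 strands overlap. The promoters of the 6 genes on which the results below turn are shown from 250 bases before to 20 bases after the start, 5′ to 3′ in the direction of transcription, in lower case with E2F-type and CCAAT strings of either strand in capitals. They are chr17:40287629-40287898 (plus strand), chr2:135876424-135876693 (minus strand), chr10:13161308-13161577 (plus strand), chr12:56752304-56752573 (minus strand), chr20:25407423-25407692 (plus strand) and chr16:788370-788639 (plus strand).
CDC6: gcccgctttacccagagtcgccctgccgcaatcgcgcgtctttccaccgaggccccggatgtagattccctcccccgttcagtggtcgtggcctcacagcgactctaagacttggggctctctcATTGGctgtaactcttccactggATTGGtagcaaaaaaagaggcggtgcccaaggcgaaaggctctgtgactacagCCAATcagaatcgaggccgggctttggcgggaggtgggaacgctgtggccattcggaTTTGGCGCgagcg
MCM6: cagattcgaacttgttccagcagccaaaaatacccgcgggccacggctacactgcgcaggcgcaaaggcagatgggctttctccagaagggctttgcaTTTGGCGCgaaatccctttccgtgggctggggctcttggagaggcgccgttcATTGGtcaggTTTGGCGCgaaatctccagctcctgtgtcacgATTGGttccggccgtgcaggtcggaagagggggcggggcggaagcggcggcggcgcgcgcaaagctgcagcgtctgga
MCM10: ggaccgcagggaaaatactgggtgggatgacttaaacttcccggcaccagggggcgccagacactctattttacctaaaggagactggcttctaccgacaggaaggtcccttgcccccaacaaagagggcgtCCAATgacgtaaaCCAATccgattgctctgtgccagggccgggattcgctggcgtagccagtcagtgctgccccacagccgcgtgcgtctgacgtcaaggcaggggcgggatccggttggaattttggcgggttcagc
PRIM1: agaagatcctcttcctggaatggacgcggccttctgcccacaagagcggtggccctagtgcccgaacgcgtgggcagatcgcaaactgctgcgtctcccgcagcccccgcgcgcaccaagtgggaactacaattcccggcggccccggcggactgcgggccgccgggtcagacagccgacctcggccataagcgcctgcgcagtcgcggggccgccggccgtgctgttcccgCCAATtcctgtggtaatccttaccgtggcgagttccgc
GINS1: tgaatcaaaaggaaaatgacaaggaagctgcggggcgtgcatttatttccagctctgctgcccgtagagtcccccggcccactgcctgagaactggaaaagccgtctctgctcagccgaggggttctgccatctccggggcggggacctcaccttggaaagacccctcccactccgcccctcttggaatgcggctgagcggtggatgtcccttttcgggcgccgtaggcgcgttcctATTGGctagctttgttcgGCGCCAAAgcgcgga
CHTF18: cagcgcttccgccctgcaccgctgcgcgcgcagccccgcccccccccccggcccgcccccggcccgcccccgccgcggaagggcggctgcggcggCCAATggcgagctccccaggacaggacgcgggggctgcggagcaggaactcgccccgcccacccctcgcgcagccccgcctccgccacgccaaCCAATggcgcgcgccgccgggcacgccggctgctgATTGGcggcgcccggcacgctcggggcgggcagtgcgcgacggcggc
*MCM6* held 2 E2F-type strings and *CDC6* and *GINS1* held 1 each, while none of the searched E2F-type strings lay in the windows of *MCM10*, *PRIM1* or *CHTF18*. CCAAT stood once in *PRIM1* and *GINS1*, in 2 places in *MCM6* and *MCM10*, and in 3 places in *CDC6* and *CHTF18*. These matches are letters in a window and were not tested as binding sites.

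In control cells of set A the level per length of the 53 genes, in CPM per kilobase of annotated exon, spanned from 3.41 for *CHTF18* to 213 for *PCNA*, with a median of 20.9. The MCM helicase subunits were among the highest, from 31.5 for *MCM5* to 160.3 for *MCM7*, with a median of 100.2 CPM per kilobase. The 6 ORC subunits had a median of 13.7 CPM per kilobase, from 8.34 for *ORC4* to 30.1 for *ORC1*, and the 9 polymerase and primase subunits had a median of 11.9 CPM per kilobase. Of the Okazaki fragment genes, the flap endonuclease *FEN1* stood at 124.3 CPM per kilobase, against 8.13 CPM per kilobase for the nuclease-helicase *DNA2*. The exon lengths come from an annotation newer than the counting, so these levels are approximate.

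Loss of SCC4 was the change with the most replication genes past the threshold. In *ΔSCC4* cells 5 of the 53 genes were lower than in the controls of set A and none was higher, by edgeR's quasi-likelihood test with Benjamini-Hochberg adjustment over all 12503 genes tested and a threshold of 0.05. They were *MCM10*, *CDC6*, *PRIM1*, *MCM6* and *MCM4*. Over all genes tested 4.03% were called lower, and 9.49% were called in either direction. The log2 fold change was below 0 for 49 of the 53 genes, against 50.7% of all genes, and its median was -0.32 for the 53 genes and -0.0047 for all genes tested. In 22 of the 53 genes every *ΔSCC4* library lay under every control, which held for 11.3% of all genes. In bulk RNA, fewer cells that express a gene and less of its RNA per cell cannot be told apart.

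The size of that count depended on how the libraries were matched. *ΔSCC4* and control libraries of the same replicate number deviated together from their group means. The labels do not state this pairing, and it was chosen from the same counts, so the p-values of a blocked fit can be too small. In a fit that blocked on the replicate number 41 of the 53 genes were called lower and 1, *CHTF18*, higher. Of all genes, 23.7% were called lower in that fit and 46% in either direction. Without replicate 1 of the set A controls 17 genes were called, without replicate 2 of these controls 1 gene was called, and without replicate 1 or replicate 2 of the *ΔSCC4* cells 2 genes were called. Over all genes the count of 1186 became 2317, 662, 895 and 805 in the same order. Within the 3 numbered pairs the median log2 ratio of the 53 genes was -0.31, -0.27 and -0.32, and 44 genes were lower in all 3 pairs, against 32.6% of all genes.

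**Figure D1:**
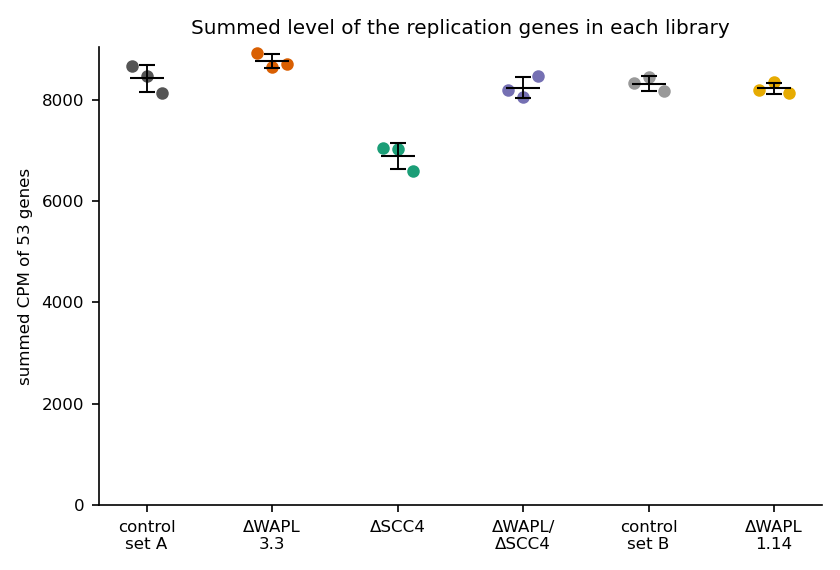
Summed CPM of the 53 replication genes (vertical axis, starting at 0) in each of the 18 libraries, by group; points are libraries, bars are the mean and SD of 3 libraries. The 3 *ΔSCC4* libraries lie between 6590.9 and 7052.2 CPM, under the other 15, which lie between 8047.3 and 8920 CPM.

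The summed level of the 53 genes showed the same split between libraries. It was 8665.6, 8465.7 and 8136.8 CPM in the controls of set A and 7052.2, 7026.9 and 6590.9 CPM in *ΔSCC4* cells, and the groups did not overlap. In *ΔWAPL*/*ΔSCC4* cells it was 8195.4, 8047.3 and 8457.2 CPM, within or just under the control range. Clone 3.3 lay between 8651 and 8920 CPM, clone 1.14 between 8129.2 and 8341.4 CPM and the controls of set B between 8161.9 and 8447.1 CPM. The most abundant genes weigh most in these sums, which the plot of summed levels shows for each library.

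Among the loading factors, *CDC6* (ENSG00000094804, chromosome 17 of GRCh37 from 38444131 to 38460909), the ATPase that works with ORC to load the helicase, stood at 130.3, 136.8 and 134.7 CPM in the controls of set A and at 77.83, 80.13 and 92.69 CPM in *ΔSCC4* cells. The groups did not overlap. The mean was 133.9 ± 3.3 CPM (SD, n = 3) in control and 83.6 ± 8.0 CPM (SD, n = 3) in *ΔSCC4* cells, or -0.69 on the log2 scale (standard error 0.13; edgeR's quasi-likelihood test, adjusted p = 0.00578), and with the replicate block the adjusted p was 1.02e-05. *CDC6* stayed past the threshold without each library in turn, with log2 fold changes from -0.77 to -0.65. The other loading factors were also below 0 without passing the threshold. The log2 fold change was -0.36 for *GMNN*, which encodes the CDT1 inhibitor geminin, -0.32 for *MCMBP*, which encodes a binding partner of MCM subunits, and -0.04 for *CDT1*.

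All 6 subunits of the MCM helicase had a log2 fold change below 0 in *ΔSCC4* cells, from -0.55 for *MCM6* to -0.19 for *MCM2*, and 2 passed the threshold. *MCM6* (ENSG00000076003, chromosome 2 of GRCh37 from 136597196 to 136634013) stood at 356.6, 381.6 and 391.8 CPM in the controls of set A and at 236.6, 269 and 273.9 CPM in *ΔSCC4* cells. *MCM4* (ENSG00000104738, chromosome 8 of GRCh37 from 48872745 to 48890720), named here after its values were seen, stood at 659.3, 689.6 and 654.5 CPM in control and at 461.8, 482 and 476.4 CPM in *ΔSCC4* cells. For both genes all *ΔSCC4* libraries lay under all controls. *MCM6* fell by 31.7% (log2 fold change -0.55, standard error 0.12, adjusted p = 0.0125 by edgeR's quasi-likelihood test; 5.54e-06 with the replicate block) and *MCM4* fell by 29.7% (log2 fold change -0.51, standard error 0.11, adjusted p = 0.0116; 5.74e-06 with the block). Without replicate 2 of the controls, or replicate 1 or 2 of the *ΔSCC4* cells, neither passed the threshold, with adjusted p between 0.0636 and 0.0717 for *MCM6* and between 0.0544 and 0.0765 for *MCM4* in the same test.

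The 9 genes of origin firing and of the CMG helicase were all below 0 in *ΔSCC4* cells, from -0.75 for *MCM10* to -0.01 for the GINS subunit gene *GINS3*. *MCM10* (ENSG00000065328, chromosome 10 of GRCh37 from 13203558 to 13253110) encodes a factor needed for the helicase to become active. It stood at 75.42, 109.8 and 120.9 CPM in the controls of set A and at 49.42, 56.51 and 77.07 CPM in *ΔSCC4* cells, so that the highest *ΔSCC4* library lay above the lowest control. Its log2 fold change was -0.75 (standard error 0.21), with an adjusted p of 0.0495 by edgeR's quasi-likelihood test and 1.98e-05 with the replicate block. Without replicate 2 or replicate 3 of the controls the adjusted p was 0.194 and 0.0828, without replicate 1 or replicate 2 of the *ΔSCC4* cells it was 0.144 and 0.175, and with a minimum of 10 counts in every library it was 0.0639, all in the same test. *GINS4*, *DONSON* and *GINS1* had log2 fold changes of -0.45, -0.45 and -0.36 and adjusted p of 0.0594, 0.0846 and 0.0931 by edgeR's quasi-likelihood test. Of these genes DESeq2 called *GINS4* lower (adjusted p = 0.03855).

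Of the polymerase and primase genes, 8 of 9 were below 0 and only *PRIM1* passed the threshold. *PRIM1* (ENSG00000198056, chromosome 12 of GRCh37 from 57124222 to 57146158) encodes the catalytic subunit of primase, which makes the RNA primers for each new strand. It stood at 60.7, 64.25 and 65.38 CPM in the controls of set A and at 38.1, 42.15 and 42.65 CPM in *ΔSCC4* cells, without overlap. The log2 fold change was -0.64 (standard error 0.13, adjusted p = 0.00872 by edgeR's quasi-likelihood test; 1.75e-05 with the replicate block), and without replicate 2 of the controls the adjusted p was 0.0573. In the current annotation *PRIM1* shares 4.2% of its exon bases with *NACA* and 10.9% with an unnamed gene on the same strand. *POLD1*, the catalytic subunit of polymerase delta, was the exception in this group with a log2 fold change of 0.13.

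By edgeR's quasi-likelihood test none of the remaining groups held a gene past the threshold in *ΔSCC4* cells, although most of their members were below 0. DESeq2 called *TIPIN*, a fork protection gene, and *RFC4*, a clamp loader gene, lower (adjusted p of 0.0313 and 0.0449), and the replicate block called further members of these groups. The PCNA clamp and the 5 subunits of its loader RFC were all below 0, from -0.45 for *RFC4* to -0.18 for *RFC2*, with a median of -0.38. The ORC subunits were below 0 in 5 of 6 genes, from -0.52 for *ORC2* to 0.07 for *ORC4*, and the 3 RPA subunits lay between -0.24 and -0.09. Of the genes that protect the fork and help to establish cohesion, 6 of 7 were below 0, from -0.60 for *CLSPN*, whose product claspin carries the checkpoint signal of the fork, to 0.29 for *CHTF18*. The standard error of *CLSPN* was 0.28, and its adjusted p was 0.229 by edgeR's quasi-likelihood test. The related gene *CHTF8* shares 84.6% of its exon bases with *DERPC*, so its own counts are uncertain.

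**Figure D2:**
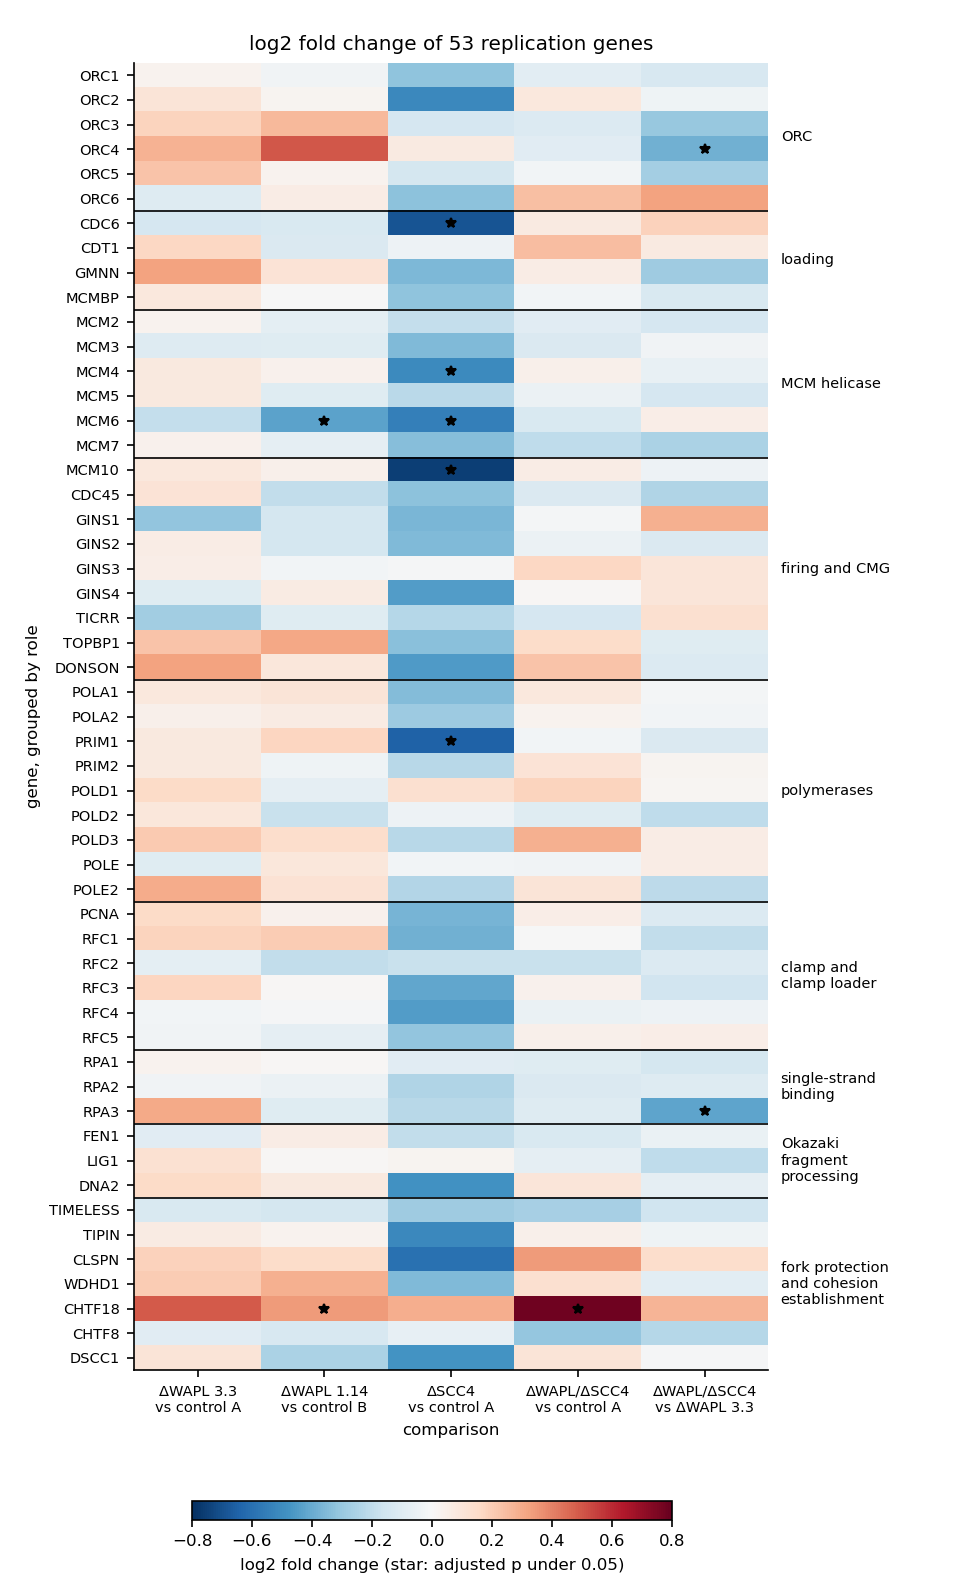
Log2 fold change (colour, from -0.8 to 0.8) of each of the 53 genes, grouped by role, in 5 comparisons; a star marks an adjusted p under 0.05 in edgeR's quasi-likelihood test. The column of *ΔSCC4* against control holds 49 genes below 0, and the column of *ΔWAPL*/*ΔSCC4* against the same controls holds 27.

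GC content moved with the *ΔSCC4* comparison and is given beside it. Across 12365 genes the log2 fold change had a Spearman's rho of 0.283 with the GC content of the longest transcript, where genes are not independent replicates, and the 53 genes had a lower median GC content, 45.3% against 48% for tested genes. With genes divided into 3 classes of equal size by GC content, in the lowest class the 18 replication genes had a median log2 fold change of -0.36 against -0.10 for the other genes, in the middle class the 25 replication genes had -0.33 against -0.03, and in the highest class the 10 replication genes had -0.04 against 0.12. The median of the replication genes was thus under that of the other genes in each of the 3 classes. These classes are broad, and the highest spans 53.5% to 74.8% GC, where 7 of 10 replication genes were below 0. Within the 53 genes the log2 fold change had a rho of 0.453 with GC content. An offset for GC content, added after the data were seen, gave a median of -0.26 and 21 genes called lower, where 9.34% of all genes were called lower and 19.8% in either direction, and with the replicate block added 39 genes were called lower, where 23.4% of all genes were. *CDC6*, *MCM4*, *MCM6*, *MCM10* and *PRIM1* were called under both settings, with log2 fold changes between -0.63 and -0.44 under the offset. Within their own groups, replicate 1 of the set A controls and replicate 1 of the *ΔSCC4* cells deviated upwards with GC content, with rho of 0.687 and 0.705, while replicates 2 and 3 of both groups had rho between -0.571 and -0.393.

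**Figure D3:**
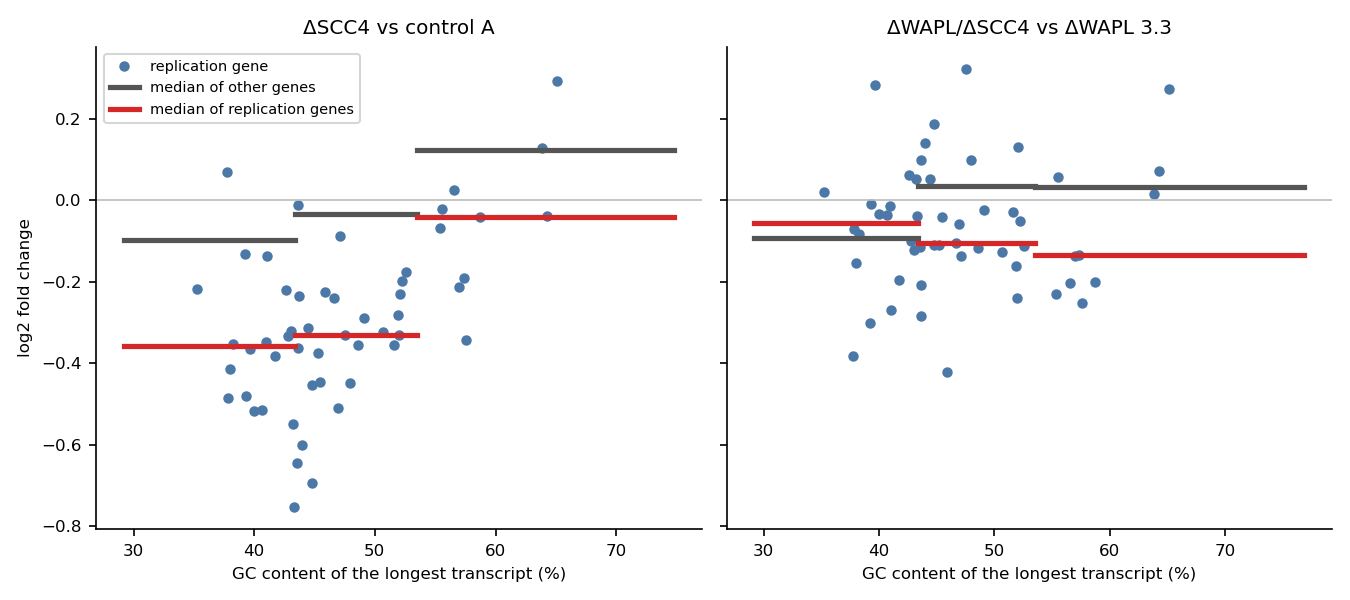
Log2 fold change (vertical axis) of the 53 genes against the GC content of the longest transcript (horizontal axis, percent), for SCC4 loss with WAPL (left) and without WAPL (right); points are genes, and bars are the medians of replication genes and of other genes within 3 classes of GC content. On the left the medians of the replication genes, -0.36, -0.33 and -0.04, lie under those of the other genes in each class, and on the right they are -0.06, -0.10 and -0.14 against -0.09, 0.04 and 0.03 for the other genes, above them in the lowest class and under them in the other two.

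In cells that already lacked WAPL, 2 of these genes passed the threshold on loss of SCC4. *ΔWAPL*/*ΔSCC4* cells had 2 genes lower and none higher than clone 3.3, *RPA3* and *ORC4*, where 4.55% of all 12544 genes tested were called lower and 10.6% in either direction. The number called lower is thus near the share of all genes. The median log2 fold change of the 53 genes was -0.08, and 38 of them were below 0, against 51.9% of all genes. Below a log2 fold change of -0.3 lay 29 genes when SCC4 was lost in the presence of WAPL, against 17.2% of all genes, and 3 genes when it was lost in its absence, against 10.7% of all genes. The number called was 5 without replicate 1 of clone 3.3, 1 without replicate 3 of the double knockout, and 0 without replicate 2 of clone 3.3 or replicate 1 or 2 of the double knockout. Over all genes the count of 1330 became 1521, 920, 861, 919 and 1277 in the same order.

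*RPA3* (ENSG00000106399, chromosome 7 of GRCh37 from 7676149 to 7758238), the smallest subunit of RPA, stood at 62.84, 62.26 and 66.92 CPM in clone 3.3 and at 46.77, 45.35 and 51.18 CPM in *ΔWAPL*/*ΔSCC4* cells. Clone 3.3 was the high group, since the controls of set A stood at 50.93, 56.61 and 46.07 CPM. The log2 fold change between double knockout and clone 3.3 was -0.42 (standard error 0.12, adjusted p = 0.0273 by edgeR's quasi-likelihood test). The adjusted p of *RPA3* in this test was 0.102 without replicate 2 of clone 3.3 and 0.156 and 0.0897 without replicate 1 and replicate 2 of the double knockout. *ORC4* (ENSG00000115947, chromosome 2 of GRCh37 from 148687965 to 148779173), a subunit of the origin recognition complex, stood at 90.65, 94.73 and 88.59 CPM in clone 3.3 and at 69.93, 71.35 and 68.72 CPM in the double knockout, without overlap. Its log2 fold change was -0.38 (standard error 0.11, adjusted p = 0.035 in the same test). The adjusted p of *ORC4* was 0.195 without replicate 2 of clone 3.3, 0.176, 0.0607 and 0.121 without replicate 1, 2 and 3 of the double knockout, and 0.0517 with the GC offset.

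Against the controls of set A the double knockout had 1 gene past the threshold, *CHTF18*, which was higher, where 4.65% of all 12594 genes tested were called higher and 7.95% in either direction. The median log2 fold change of the 53 genes was -0.004, with 27 below 0 and 26 above 0, and 49.8% of all genes were below 0. The genes called in *ΔSCC4* cells lay close to the same controls in the double knockout. *CDC6* stood at 127.9, 145.8 and 148.6 CPM (log2 fold change 0.07, standard error 0.11), *MCM4* at 645.4, 686.9 and 730.7 CPM (0.04, standard error 0.10), and *PRIM1* at 58.72, 65.08 and 64.19 CPM (-0.02, standard error 0.11). *MCM6* stood at 324.3, 357.6 and 357.6 CPM (-0.12, standard error 0.10) and *MCM10* at 104.6, 119.8 and 94.22 CPM (0.06, standard error 0.17). Their libraries overlapped those of the controls. This comparison and that of *ΔSCC4* cells share the 3 controls.

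Whether SCC4 loss had a different effect with and without WAPL was tested as an interaction over the 12 libraries of set A, as the effect in *ΔWAPL* cells minus the effect in cells with WAPL. The difference passed the threshold and was above 0 for 4 genes, *CDC6*, *GINS1*, *MCM6* and *PRIM1*, and for none below 0 by edgeR's quasi-likelihood test, where 11.3% of all 12817 genes tested were called in either direction and 5.85% above 0. It was below 0 for 10 of the 53 genes and above 0 for 43, where 49.6% of all genes were below 0, and its median was 0.24 over the 53 genes and 0.0033 over all genes. DESeq2 called 5 genes above 0 and 1, *ORC4*, below 0 (log2 difference -0.45, adjusted p = 0.0389). The number called by edgeR was 8 without replicate 1 of the set A controls and 2 without replicate 2 of clone 3.3. Over all genes the count of 1453 became 1747 and 1114 in these fits.

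The largest of these differences was that of *CDC6*, whose log2 fold change on SCC4 loss was -0.69 with WAPL and 0.19 without, a difference of 0.89 (standard error 0.20, adjusted p = 0.00809 by edgeR's quasi-likelihood test). Clone 3.3 itself had a wide spread, with *CDC6* at 156.5, 104.4 and 110.1 CPM. *GINS1* (ENSG00000101003, chromosome 20 of GRCh37 from 25371644 to 25433336), a subunit of the GINS complex, stood at 145.8, 153 and 134.9 CPM in control, 134.3, 110.9 and 107.9 CPM in clone 3.3, 111.3, 110.6 and 117.9 CPM in *ΔSCC4* cells, and 136.2, 141.3 and 151.5 CPM in the double knockout. The double knockout and the controls were thus the high groups of *GINS1*, and every *ΔSCC4* library lay under both. Its difference was 0.66 (standard error 0.15, adjusted p = 0.00949 by edgeR's quasi-likelihood test), and both *CDC6* and *GINS1* stayed past the threshold without each of the 12 libraries in turn.

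*MCM6* had a difference of 0.61 (standard error 0.15, adjusted p = 0.0165 by edgeR's quasi-likelihood test), which had an adjusted p of 0.0544 without replicate 2 of clone 3.3. In the double knockout it stood at 324.3, 357.6 and 357.6 CPM, and in clone 3.3 at 388.1, 318.9 and 296.9 CPM, so that these groups overlapped while *ΔSCC4* cells lay under both. *PRIM1* had a difference of 0.54 (standard error 0.16, adjusted p = 0.0393 in the same test), and with the replicate block its adjusted p was 0.0733. That of *PRIM1* passed without replicate 1 of the set A controls, replicate 1 of clone 3.3 or replicate 3 of the *ΔSCC4* cells, and had an adjusted p between 0.0571 and 0.104 without any of the other 9 libraries. *MCM10* and *MCM4*, which were lower in *ΔSCC4* cells, had differences of 0.72 (standard error 0.28, adjusted p = 0.117) and 0.46 (standard error 0.15, adjusted p = 0.0577) in the same test, so that a different effect of SCC4 loss was not detected for them.

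**Figure D4:**
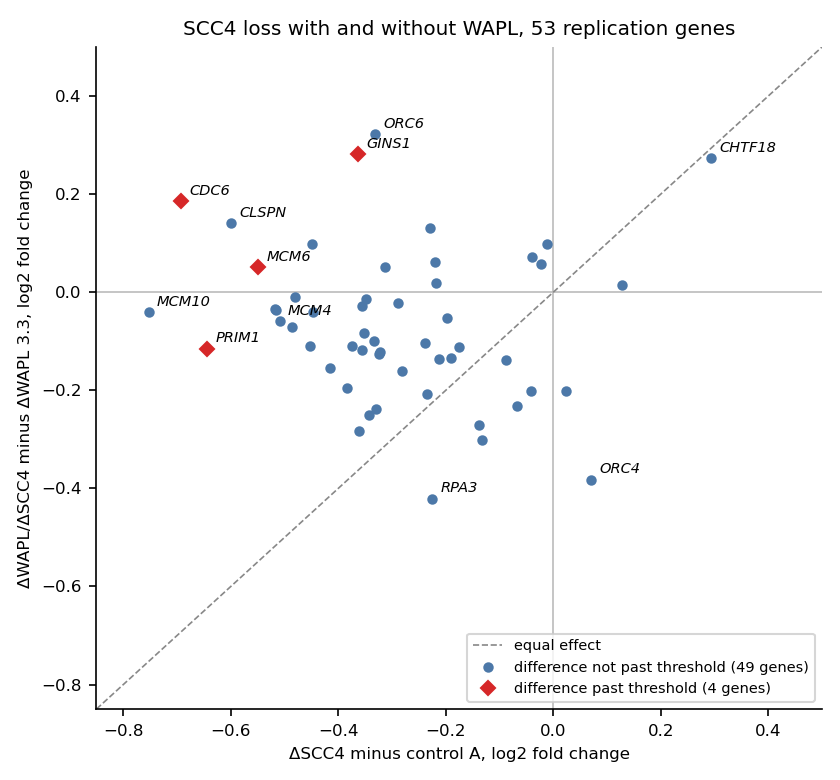
Log2 fold change on SCC4 loss in cells without WAPL (*ΔWAPL*/*ΔSCC4* minus clone 3.3, vertical axis) against that in cells with WAPL (*ΔSCC4* minus control of set A, horizontal axis), with each point a gene and the dashed line marking equal effects. Of the 53 genes 43 had an interaction term above 0, and the 4 red diamonds are *CDC6*, *GINS1*, *MCM6* and *PRIM1*, whose difference passed the threshold.

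Loss of WAPL alone left most replication genes under the threshold. In clone 3.3 none of the 53 genes was called, where 8.07% of all 12489 genes tested were, and 3 had an unadjusted p under 0.05. DESeq2 also called none. The median log2 fold change of the 53 genes was 0.08, from -0.32 for *GINS1* to 0.49 for *CHTF18*, and without replicate 1 of the set A controls 1 gene, *CHTF18*, was called. Over all genes the count of 1008 became 1180 without that library. In clone 1.14 *CHTF18* was higher and *MCM6* lower than in the controls of set B, where 20.1% of all 12636 genes were called, and the median of the 53 genes was 0.01. That count was 14 without replicate 3 of the set B controls, 4 without replicate 2 of these controls, and 1 without replicate 1 of these controls or without replicate 2 or 3 of clone 1.14. Over all genes the count of 2536 became 4820, 2586, 1523, 1701 and 1473 in the same order.

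In a joint fit of both clones that accounted for the set, *ORC4* and *CHTF18* were higher and *MCM6* was lower, where 17.7% of all 12786 genes were called in either direction. The 3 libraries of a clone were treated as independent here, and the variation from clone to clone is not covered by the p-values. The count was 7 without replicate 3 of the set B controls and 5 without replicate 3 of clone 3.3. Over all genes the count of 2262 became 2489 and 2381 in these fits. A test of the difference between the clones called none of the 53 genes, with 2 at an unadjusted p under 0.05 and none by DESeq2, where 2.65% of all genes were called.

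*CHTF18* (ENSG00000127586, chromosome 16 of GRCh37 from 838046 to 850737) encodes the large subunit of the alternative clamp loader that acts in sister chromatid cohesion, together with *DSCC1* and *CHTF8*. It stood at 21.95, 18.13 and 20.44 CPM in the controls of set A, at 25.22, 27.66 and 33.43 CPM in clone 3.3, at 29, 18.33 and 27.09 CPM in *ΔSCC4* cells and at 38.47, 30.42 and 35.18 CPM in the double knockout. In set B it stood at 25.16, 22.79 and 25.44 CPM in control and at 28.2, 33.18 and 31.8 CPM in clone 1.14. The libraries without WAPL lay above the controls of their own set in all 3 *ΔWAPL* groups, and the *ΔSCC4* libraries overlapped the controls.

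The log2 fold change of *CHTF18* was 0.43 over both clones (standard error 0.09, adjusted p = 0.00326 by edgeR's quasi-likelihood test), 0.34 in clone 1.14 (standard error 0.09, adjusted p = 0.031) and 0.49 in clone 3.3 (standard error 0.16, adjusted p = 0.0923) in the same test. It was 0.78 in the double knockout against the controls of set A (standard error 0.14, adjusted p = 0.00536 by edgeR's quasi-likelihood test). The values over both clones and in the double knockout stayed past the threshold without each library in turn, while that of clone 1.14 had an adjusted p of 0.0862 without replicate 1 of the controls and of 0.101 and 0.115 without replicate 2 and replicate 3 of the clone. The GC content of *CHTF18* was 65.1%. The 7 alternative fits, with the GC offset among them, gave 0.38 to 0.43 over both clones and 0.59 to 0.78 in the double knockout. All of these passed the threshold. In *ΔSCC4* cells its log2 fold change was 0.28 with the replicate block (adjusted p = 0.0294 by edgeR's quasi-likelihood test). With the GC offset added it was 0.09 (adjusted p = 0.412 in the same test). A part of GC content in these values was not tested. The partner gene *DSCC1* stood at 0.10 on the log2 scale (standard error 0.12) and *CHTF8* at -0.31 (standard error 0.14) in the double knockout against the controls of set A, and neither passed the threshold.

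*MCM6* in clone 1.14 stood at 307.3, 332.6 and 320.5 CPM, against 410.6, 458.7 and 417.1 CPM in the controls of set B, without overlap. It fell by 25.6% (log2 fold change -0.43, standard error 0.06, adjusted p = 0.00325 by edgeR's quasi-likelihood test) and stayed past the threshold without each library in turn. In clone 3.3 the libraries overlapped the controls, and the log2 fold change was -0.19 (standard error 0.13, adjusted p = 0.557 in the same test). Over both clones the value was -0.30 (standard error 0.08, adjusted p = 0.014 by edgeR's quasi-likelihood test). The difference between the clones was 0.25 (standard error 0.14, adjusted p = 0.6 in the same test), so that a clone-specific effect on *MCM6* was not detected.

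*ORC4* stood at 68.51, 77.02 and 77.41 CPM in the controls of set A and at 58.53, 42.96 and 69.39 CPM in those of set B. In clone 3.3 every library lay above its controls, and in clone 1.14 *ORC4* stood at 88.11, 73.19 and 80.75 CPM, also above all 3 controls of its set. Over both clones its log2 fold change was 0.40 (standard error 0.10, adjusted p = 0.0139 by edgeR's quasi-likelihood test), and it stayed past the threshold without each library in turn. The 7 alternative fits, with the GC offset among them, gave *ORC4* values from 0.21 to 0.41 over both clones, all past the threshold. Its GC content was 37.7%, in the lowest of 3 classes, where the other genes had a median of 0.14 over both clones. With the GC offset *ORC4* stayed past the threshold over both clones, but a part of GC content in the size of its rise was not tested. Within clone 3.3 the log2 fold change of *ORC4* was 0.28 (adjusted p = 0.312 by edgeR's quasi-likelihood test). Within clone 1.14 it was 0.50 (adjusted p = 0.0718 in the same test), and the adjusted p was 0.0381 and 0.0118 without replicate 2 and replicate 3 of the set B controls. In the alternative fits of clone 1.14 it lay between 0.28 and 0.52 and passed the threshold in 4 of 7.

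The 4 genes with the next lowest p over both clones did not pass the threshold by edgeR's quasi-likelihood test. *GINS1* had a log2 fold change of -0.22 (adjusted p = 0.0524), *GMNN* of 0.23 (adjusted p = 0.0549), *POLE2*, a subunit of polymerase epsilon, of 0.22 (adjusted p = 0.0597), and *TICRR*, which encodes the firing factor treslin, of -0.18 (adjusted p = 0.0685) in that test. *POLD3*, an accessory subunit of polymerase delta, had a log2 fold change of 0.18 (adjusted p = 0.124 in the same test). By role, the polymerase and primase genes were above 0 in 8 of 9 cases over both clones, with a median of 0.07, and the MCM subunits were below 0 in 4 of 6, with a median of -0.01; of all genes 49% were below 0.

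**Figure D5:**
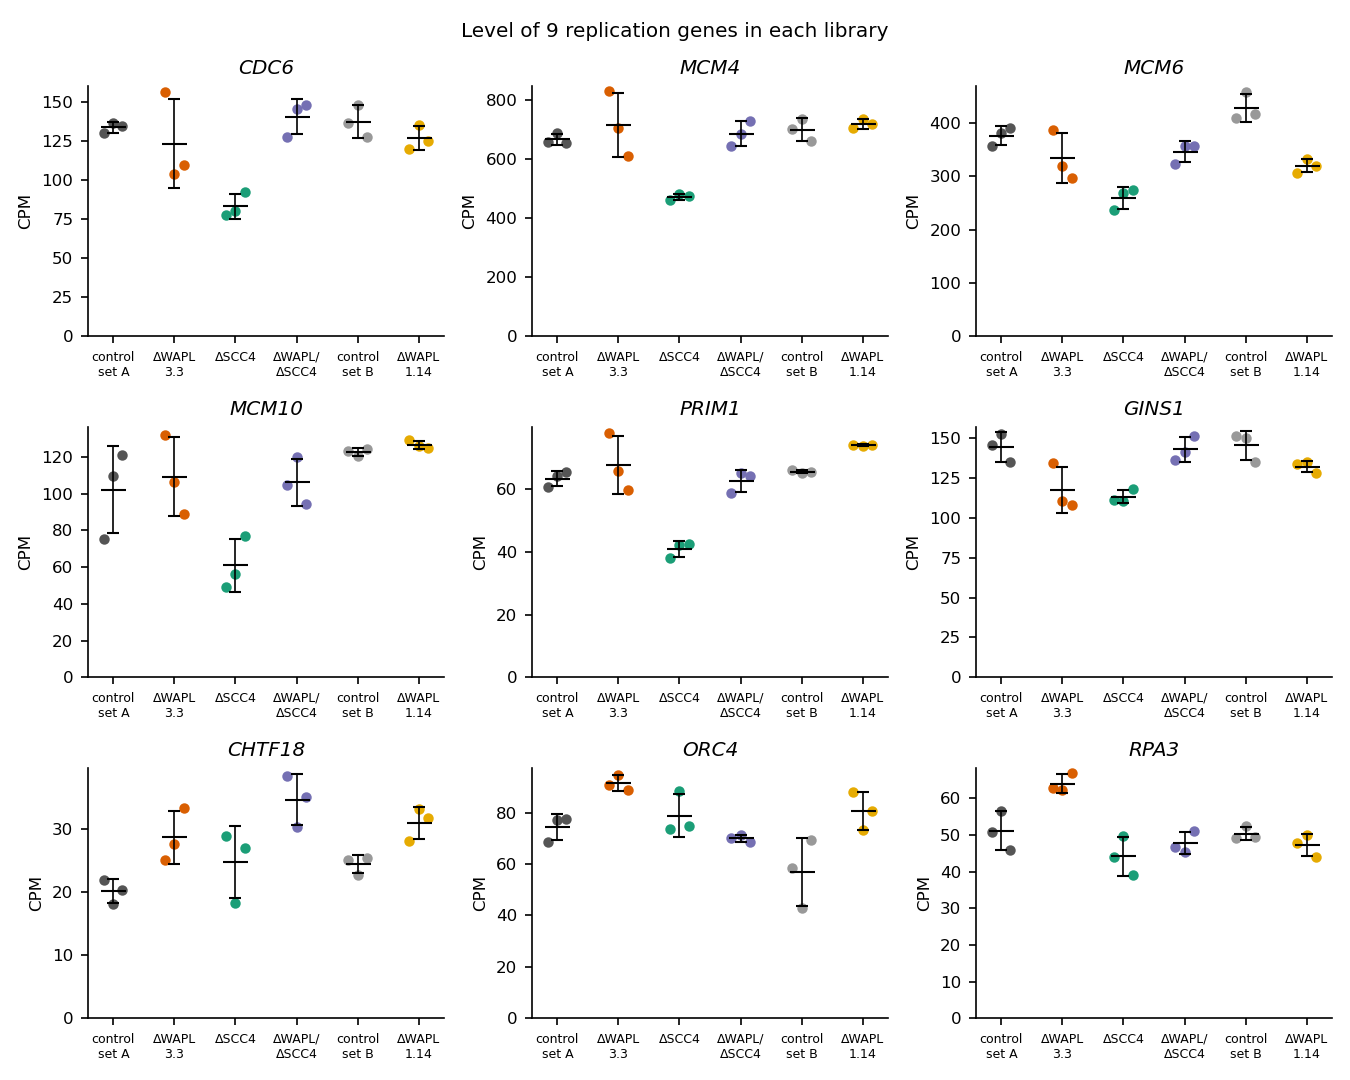
CPM (vertical axes, starting at 0) of 9 replication genes in each of the 18 libraries, by group; points are libraries, bars are the mean and SD of 3 libraries. The 3 *ΔSCC4* libraries of *CDC6*, *MCM4*, *MCM6* and *PRIM1* lie under all other libraries of these genes, and *CHTF18* has its highest group mean in the double knockout, at 30.42 to 38.47 CPM, where it overlaps clone 3.3.

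Between the control groups of sets B and A none of the 53 genes was called, with 2 at an unadjusted p under 0.05 and none by DESeq2, where 0.64% of all 12509 genes tested were called. The median log2 fold change was -0.01, from -0.40 for *ORC4* to 0.47 for *CLSPN*. The plot of 9 genes by library shows how far the controls of the sets lay apart for each.

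Genes that regulate the firing of origins and the supply of building blocks were examined from lists of their own. Of 20 firing kinases and S phase regulators, 17 had a log2 fold change below 0 in *ΔSCC4* cells, with a median of -0.24, and 1 was called lower, where 4.03% of all genes were. That gene was *DTL*, which encodes the substrate receptor of the ubiquitin ligase that removes CDT1 in S phase, at -0.63 on the log2 scale (standard error 0.13, adjusted p = 0.0123 by edgeR's quasi-likelihood test). *DTL* also had an interaction of WAPL and SCC4 loss above 0, of 0.63 (standard error 0.17, adjusted p = 0.0218 in the same test). Of 15 genes of deoxynucleotide synthesis, 12 were below 0 in *ΔSCC4* cells, with a median of -0.11 and none called. For *RRM2*, a subunit of ribonucleotide reductase, the value was -0.33 (standard error 0.11, adjusted p = 0.111 by edgeR's quasi-likelihood test).

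Over both *ΔWAPL* clones 4 of the 20 regulators were higher and none lower by edgeR's quasi-likelihood test, and 4 of the 15 deoxynucleotide genes were called, where 17.7% of all genes were called in either direction. The share of the regulators is near that of all genes. The regulators called were *CDKN1A*, the CDK inhibitor p21, at 1.25 on the log2 scale (standard error 0.27, adjusted p = 0.00407), *CCNE2*, a cyclin E, at 0.52 (standard error 0.14, adjusted p = 0.0198), *DBF4*, the activator of the firing kinase CDC7, at 0.40 (standard error 0.13, adjusted p = 0.0421), and *FBXO5*, an inhibitor of the anaphase-promoting complex, at 0.38 (standard error 0.10, adjusted p = 0.0118) in that test. Among the deoxynucleotide genes *DUT*, *DCTD* and *MTHFD1* were lower over both clones, at -0.31, -0.32 and -0.29, and *DCK* was higher at 0.26. Of 18 other fork and cohesion establishment factors 1 was called over both clones, the polymerase delta subunit *POLD4*, at -0.62 (standard error 0.11, adjusted p = 0.000996 by edgeR's quasi-likelihood test), and none was called in *ΔSCC4* cells.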

How the data were processed

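Polyadenylated RNA of 18 HAP1 samples was sequenced with a stranded kit. Per the submitters' processing notes the reads were aligned to hg19 with TopHat (2.0.9 in the notes) and counted per gene with HTSeq; the annotation release is not given in the sources used here. The authors deposited raw counts per gene, one file per library, without normalization. Reads in categories that name no gene, 20.3% to 22.6% of each file's total, were left out. The total of 10007646 to 20711127 counts per library sets the precision, and nothing says that replicates came from separate cultures, so p-values measure the spread between samples, which may be technical.

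Counts were normalized by TMM, filtered with filterByExpr and tested on all genes with edgeR 4.0.16 (quasi-likelihood, R 4.3.3), with Benjamini-Hochberg adjustment at 0.05. Standard errors are the size of the log2 fold change divided by the root of F. A prior count of 2 entered the log2 CPM behind the deviations from group means and the GC offset, not the fold changes. Of the gene identifiers 19637 had a symbol in the GENCODE annotation lifted to GRCh37. The edgeR and DESeq2 fits were run on simulated counts with known fold changes, which were larger than those of the 53 genes. The simulation held no GC trend and no pairing of libraries. Neither the replicate block nor the GC offset was run on it. Same-numbered control A and *ΔSCC4* libraries deviated from their group means with correlations of 0.675, 0.115 and 0.615, all above the limit of 0.1, so the blocked value is given beside those results; the pairing comes from the data and is not stated by the labels. The limit was not met in the other comparisons. Alternatives were DESeq2 1.42.0, its size factors, a minimum of 10 counts in every library, no filter, one fit over all libraries, the replicate block and leaving out each library; an offset for GC content, alone or with the block, was added after the data were seen. The 53 genes and all lists were chosen with earlier results of these data known. Named genes are, in each comparison, up to 3 highest and 3 lowest among called members, those called in an interaction, and further members by lowest p over both clones up to 12 genes.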

Additional observations from a re-analysis of the deposited data

Results flagged for a closer look

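The effect of SCC4 loss differed between cells with and without WAPL for 4 of the 53 replication genes, by an interaction term in edgeR's quasi-likelihood test adjusted over all 12817 genes tested. All 4 were above 0, where 5.85% of all genes were called above 0 and 11.3% in either direction. The count of 4 is thus near the share of all genes. The log2 difference, as the effect in *ΔWAPL* cells minus the effect in cells with WAPL, was 0.89 for *CDC6* (adjusted p = 0.00809 in that test). For *CDC6* the log2 fold change on SCC4 loss was -0.69 with WAPL and 0.19 without. The difference was 0.66 for *GINS1* (adjusted p = 0.00949 by edgeR's quasi-likelihood test), where the effects were -0.36 with WAPL and 0.28 without. For *MCM6* it was 0.61 (adjusted p = 0.0165 in the same test), with effects of -0.55 and 0.05. For *PRIM1* it was 0.54 (adjusted p = 0.0393 in the same test), with effects of -0.64 and -0.12, and this difference did not pass the threshold with the replicate block (adjusted p = 0.0733 in the same test) or in 9 of 12 fits that each left out a library. Each of these terms compares all 4 groups of set A, in which every genotype is a clone, so that the effects of the clones and of the genotypes cannot be told apart.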

How the results depend on the processing

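The counts below are replication genes past the threshold, of 53. In *ΔSCC4* cells against control the count of 5 became 8 with DESeq2, 42 with the replicate block, 21 with one fit over all 18 libraries, 21 with the GC offset and 39 with the GC offset and the block. The count of 1186 over all genes became 1241, 5754, 2556, 2474 and 5687 in the same order. In clone 3.3 the count of 0 became 5 with one fit (1753 of all genes against 1008) and 1 with the GC offset (1573). In clone 1.14 the count of 2 became 4 with the replicate block (3030 of all genes against 2536) and 7 with the GC offset (3459). Over both clones 3 became 2 with the block, 7 with DESeq2, 6 with one fit and 7 with the GC offset. There the count of 2262 over all genes became 1539, 2509, 2756 and 3074 in the same order. In the double knockout against control 1 became 2 with the GC offset (1675 of all genes against 1001). Against clone 3.3 2 became 1 with one fit (1493 against 1330) and 8 with the GC offset (2404). In the interaction of WAPL and SCC4 loss 4 became 3 with the replicate block and with no filter, 6 with DESeq2 (1 of them below 0), 7 with one fit and 12 with the GC offset (1 of them below 0). Here the count of 1453 over all genes became 1287, 1513, 1567, 2015 and 3198 in the same order. The cause of these shifts was not tested. Leaving out each library gave 1 to 17 in *ΔSCC4* cells, 0 to 1 in clone 3.3, 1 to 14 in clone 1.14, 3 to 7 over both clones, 1 in the double knockout against control, 0 to 5 against clone 3.3, 2 to 8 in the interaction, and 0 in the difference between the clones and between the controls. The counts over all genes shifted too, from 662 to 2317 in *ΔSCC4* cells and from 1415 to 4820 in clone 1.14. They ran from 1841 to 2865 over both clones and from 1114 to 1747 in the interaction. With the longest transcript as length, the median level of the 53 genes was 30.1 instead of 20.9 CPM per kilobase.

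With the replicate block *MCM6* over both clones had an adjusted p of 0.0505 and *PRIM1* in the interaction one of 0.0733 by edgeR's quasi-likelihood test. Same-number correlations were -0.515, -0.001 and -0.487 for clone 3.3 with its controls and 0.049, 0.319 and 0.196 for clone 1.14 with its controls. Of the named genes' values under all alternatives, 1667 kept their direction and side of the threshold, 63 newly passed it, 38 no longer passed it, and none of those past the threshold changed sign.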

Other observations

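The E2F family and the chromatin assembly factors of the fork were also described. Of 13 genes of E2F, DP and pocket proteins, 12 had a log2 fold change below 0 in *ΔSCC4* cells, with a median of -0.21 and none past the threshold by edgeR's quasi-likelihood test. For *E2F1*, an activator of replication genes, the value was -0.20 (standard error 0.14, adjusted p = 0.42 in that test). Over both *ΔWAPL* clones *E2F7*, a repressor of the family, was higher at 0.58 (standard error 0.13, adjusted p = 0.00529) and *E2F2* was lower at -0.36 (standard error 0.08, adjusted p = 0.00424) by edgeR's quasi-likelihood test, where 17.7% of all genes were called.

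Of 13 tested genes of replication-coupled chromatin assembly, 11 were below 0 in *ΔSCC4* cells, and the histone chaperone gene *NASP* was called lower at -0.71 (standard error 0.16, adjusted p = 0.0162 by edgeR's quasi-likelihood test), where 4.03% of all genes were. In the interaction of WAPL and SCC4 loss *SLBP*, which encodes the protein that binds histone mRNA, was above 0 at 0.49 (standard error 0.14, adjusted p = 0.0326 in the same test). Genes with an E2F-type string in the promoter window had a median log2 fold change of -0.36 in *ΔSCC4* cells (19 genes), and those without one of -0.28 (25 genes). For the string CCAAT the medians were -0.35 with it (26 genes) and -0.19 without it (18 genes). These medians are descriptions without a test.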
